A study of Mus musculus with 17 samples.

Results

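The genes followed here are 10 mouse genes of the lipid-associated, TREM2-expressing macrophage state: Trem2, Tyrobp, Gpnmb, Cd63, Cd9, Fabp5, Apoe, Atp6v0d2, Acp5 and Dcstamp. They were picked by symbol out of 31647 features in the count table, with their difference between infarcted and sham hearts already known. That difference is therefore given below as a description, without a test. All hearts came from male wild-type C57BL/6J mice, and no gene was deleted or added in any of them. One group, 8 animals, had sham surgery without tying the coronary artery, and left ventricular (LV) tissue was taken. In the other, 9 animals, the left anterior descending coronary artery was ligated permanently and the infarct zone (IZ) was dissected. Both groups were sampled 5 days after surgery, so the IZ libraries describe one time point of a non-reperfused infarct. Each library is bulk tissue from 1 animal, sequenced from the 3′ ends of mRNA with molecular identifiers.

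TREM2 is a surface receptor of macrophages that binds lipids and lipoproteins. It has no signalling tail of its own and passes its signal through the adaptor DAP12, which is encoded by Tyrobp. Macrophages in this state take up lipid and cell debris and express lysosomal and lipid-handling genes. The state is known from adipose tissue, atherosclerotic plaques, microglia around amyloid, and scar-associated macrophages of several organs. Atp6v0d2, Acp5 and Dcstamp are best known from the osteoclast, a bone-resorbing cell of the same lineage.

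The libraries held between 1237675 and 4738307 counts. A count of 3 corresponded to 1.77 scaled counts per 1e6 (CPM) in a sham library and 1.05 CPM in an IZ library on average, which is the floor used below. Mitochondrially encoded genes took 22.9% to 32.4% of the counts in sham hearts and 4.22% to 6.78% in 8 IZ libraries, but 19.5% in IZ replicate 1. That library also held 11230 CPM of 5 cardiomyocyte markers, compared with 1060 CPM in the lowest infarct. IZ replicate 1 therefore stood apart, and the values that rest on it are given with and without it. Of 12301 genes tested with edgeR's quasi-likelihood test, 36.3% were called higher and 33.1% lower in the IZ at an adjusted p of 0.05. With total counts as the only scaling, 9176 genes were higher and 1534 lower, compared with 4470 and 4074 with TMM scaling, and the median log2 fold change of all genes moved from 0.05 to 1.13.

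All 5 macrophage markers used to check the tissue were higher in the IZ. Csf1r, the receptor for the macrophage growth factor, rose from 30.8 ± 4.93 CPM (SD, n = 8) to 153 ± 23.6 CPM (SD, n = 9), with an adjusted p of 9.30e-13. Adgre1, which encodes F4/80, rose by 3.19 on the log2 scale (adjusted p = 4.80e-13). Cd68, a lysosomal glycoprotein, rose by 4.09 (adjusted p = 4.80e-13). Fcgr1, an antibody receptor, had a log2 difference of 3.85, and Mertk, a receptor for dying cells, one of 2.01. With as few as 4 and 1 counts in a sham library, these 2 could not pass the filter on low counts through sham hearts alone. That filter asked for 10 counts in a library of median size, in at least 8 libraries. The summed level of these 5 genes ranged from 46.6 to 86.3 CPM in sham hearts and from 298 to 671 CPM in the IZ. In bulk tissue, more macrophages and more RNA per macrophage cannot be told apart. Of the markers of other cells, all 5 of cardiomyocytes were lower, 4 of 5 of fibroblasts were higher, and all 4 of monocytes and 3 of 3 tested of neutrophils were higher. Each of these monocyte and neutrophil markers had 5 counts or fewer in some sham library, so none could pass the filter through sham hearts alone. Chil3 had at most 1 count in a sham library and Csf3r at most 3, so their direction was fixed by the filter. Of 3 tested markers of resident macrophages, 2 were lower, Lyve1 and Cd163, both of which lost that call with total-count scaling. The third, Folr2, was not called (log2 fold change 0.38, adjusted p = 0.108), but was called higher without IZ replicate 1 (0.44, adjusted p = 0.0279), without IZ replicate 6 (0.47, adjusted p = 0.0448) and with total-count scaling (1.47, adjusted p = 1.63e-06). The part of these shifts in the values below was not tested.

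The start regions of 3 of these genes are shown first, because Trem2 and Gpnmb had the highest Pearson r of any pair over all 9 infarcts and the third, Acp5, carries a match to the M-box described next. The letters are from RefSeq on GRCm38.p6, read 5′ to 3′ on the strand of the gene, with exon bases left out. Capitals mark the motif matches.
Trem2, bases -150 to -1, chr17:48346251-48346400, plus strand: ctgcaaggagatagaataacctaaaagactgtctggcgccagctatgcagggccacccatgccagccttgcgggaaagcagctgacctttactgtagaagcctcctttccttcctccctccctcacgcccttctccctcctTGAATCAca
Gpnmb, bases -150 to -1, chr6:49036368-49036517, plus strand: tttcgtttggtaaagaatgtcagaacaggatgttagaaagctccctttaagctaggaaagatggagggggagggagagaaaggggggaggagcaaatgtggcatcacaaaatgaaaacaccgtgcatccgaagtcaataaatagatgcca
Acp5, bases -160 to -11, chr9:22130609-22130758, minus strand: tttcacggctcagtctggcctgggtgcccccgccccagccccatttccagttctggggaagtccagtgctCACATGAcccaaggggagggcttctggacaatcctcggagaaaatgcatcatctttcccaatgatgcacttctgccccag

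These motifs were searched on both strands of the 250 bases before each annotated start. They were CACGTG, the E-box of the MiT/TFE factors, TCATGTG, the related M-box, and GAGGAAGT for PU.1, a factor of myeloid cells. The fourth was TGANTCA, a loose form of the AP-1 site that takes any base at its centre. Windows were found for 6 of the 10 genes, 10 windows in all. The Trem2 window held TGAATCA, a match to this loose form only by its open centre base, 9 bases before the start. Of 3 Acp5 windows, 1 held the M-box letters, read on the other strand, 90 bases before the start. The windows of Gpnmb, Cd9, Cd63 and Apoe held none of the 4. Of 32851 mouse windows of the same length, 6.75% held TGANTCA, 3.25% TCATGTG, 6.02% CACGTG and 2.44% GAGGAAGT. A match describes letters and is not a measured binding site.

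The receptor and its adaptor were both low in sham hearts. Trem2 (ENSMUSG00000023992, chr17:48346401-48354147 on mm10, plus strand) stood at 3.59, 9.12 and 17.5 CPM in the lowest, median and highest sham heart. In the IZ the corresponding values were 86.5, 235 and 319 CPM, so the lowest infarct was above the highest sham heart. The difference was 4.56 ± 0.27 (log2, SE), a 23.6-fold higher level, and 0.374% of the genes tested had a difference at least as large. Tyrobp (ENSMUSG00000030579, chr7:30413760-30417585, plus strand) stood at 20.1, 28.9 and 46.3 CPM in sham and at 196, 438 and 573 CPM in the IZ. It was 14.6-fold higher (log2 3.87 ± 0.22, SE), and the groups did not overlap. The number of Trem2 counts per Tyrobp count had a median of 0.366 in sham hearts and 0.528 in the IZ, and only 2 of 9 infarcts lay above every sham heart.

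Apoe and Fabp5 bind lipid outside and inside the cell. Apoe (ENSMUSG00000002985, chr7:19696109-19699188, minus strand), the apolipoprotein that carries cholesterol out of macrophages and is a ligand of TREM2, was the most abundant of the 10 in both groups. Its level was 429, 460 and 514 CPM in the lowest, median and highest sham heart. It reached 2776, 3825 and 4617 CPM in the IZ, where it alone made up 0.292% to 0.649% of all counts. The difference was 2.96 ± 0.16 (log2, SE), or 7.79-fold, and the groups did not overlap. Fabp5 (ENSMUSG00000027533, chr3:10012548-10016607, plus strand), a cytosolic fatty acid carrier of macrophages and skin, was at 13.2, 20.5 and 34.3 CPM in sham and at 64.6, 153 and 235 CPM in the IZ. It was 6.41-fold higher (log2 2.68 ± 0.23, SE), again without overlap.

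Gpnmb, Cd63 and Cd9 encode membrane proteins of the lysosome and cell surface. Gpnmb (ENSMUSG00000029816, chr6:49036546-49070929, plus strand), a glycoprotein of phagosomes and melanosomes, had the largest difference of the 10. It stood at 4.1, 8.99 and 12.5 CPM in the lowest, median and highest sham heart and at 115, 477 and 636 CPM in the IZ. The fold was 49.5 (log2 5.63 ± 0.30, SE), and 0.0732% of the genes tested lay at or above it. Cd63 (ENSMUSG00000025351, chr10:128900989-128912822, plus strand), a tetraspanin of late endosomes and secretory vesicles, was at 65.1, 88.3 and 115 CPM in sham and at 188, 425 and 502 CPM in the IZ. It was 4.51-fold higher (log2 2.17 ± 0.17, SE), without overlap. Cd9 (ENSMUSG00000030342, chr6:125460266-125494791, minus strand), a tetraspanin that many cell types carry, had the smallest difference. It stood at 31.7, 49.3 and 66.7 CPM in sham and at 63.2, 126 and 154 CPM in the IZ, 2.51-fold higher (log2 1.33 ± 0.17, SE). Its groups overlapped through 1 library, IZ replicate 1 at 63.2 CPM.

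Of the osteoclast genes, 2 were detected in every infarct and 1 was close to absent from the counts. Acp5 (ENSMUSG00000001348, chr9:22126727-22135711, minus strand), the tartrate-resistant acid phosphatase that stains osteoclasts, had 0 to 6 counts in a sham library and 35 to 309 in an IZ library. Its level averaged 1.12 ± 1.33 CPM over 8 sham hearts and 36.7 ± 11.8 CPM over 9 infarcts (SD), a log2 difference of 5.06 ± 0.41 (SE). Atp6v0d2 (ENSMUSG00000028238, chr4:19876841-19922605, minus strand), a proton pump subunit of osteoclasts and macrophages, had 0 to 3 counts in a sham library and 9 to 128 in an IZ library. Its IZ level was 3.23, 17.6 and 30.7 CPM in the lowest, median and highest library. The IZ mean was 9.96 times the floor of 3 counts per sham library, a lower bound for the ratio of the group means only. Dcstamp (ENSMUSG00000022303, chr15:39745930-39760938, plus strand), which osteoclasts and giant cells need in order to fuse, had no count in any sham library. Its 3 counts in the IZ all came from IZ replicate 3. It was too low to be tested, and a difference was not detectable at this depth. Ocstamp, a second fusion gene, had no count in sham and at most 5 in an IZ library.

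**Figure D1:**
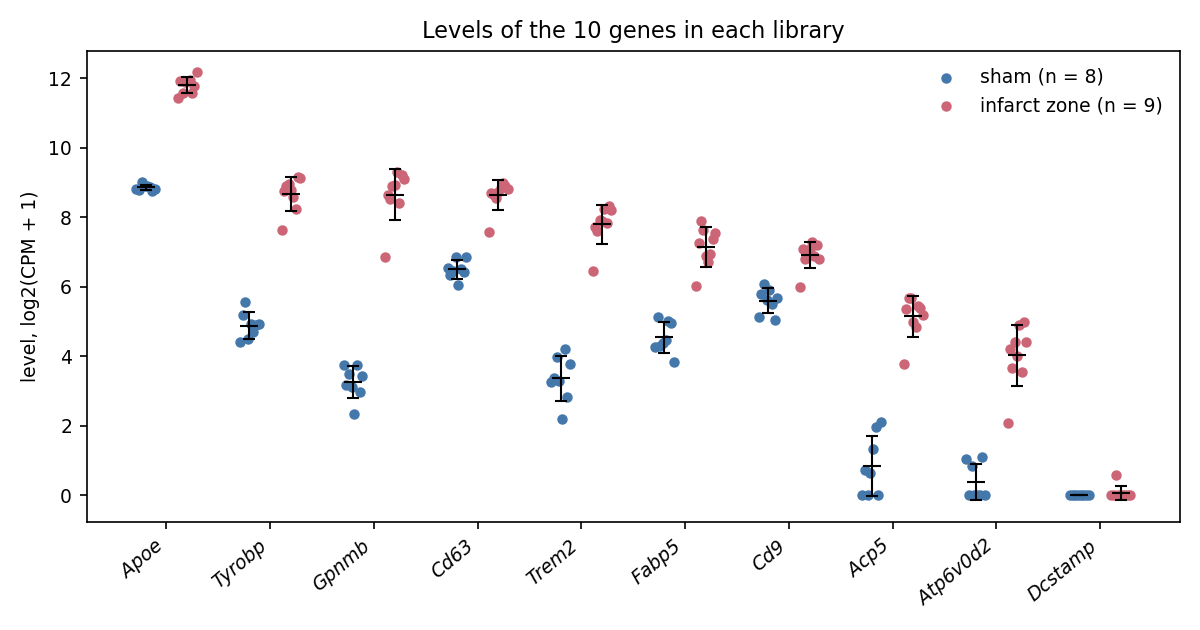
Level of each of the 10 genes, as log2(CPM + 1), in 8 sham (blue) and 9 infarct zone (red) libraries, with 1 point per library, black bars for the mean ± SD on that scale, and genes in the order of their infarct zone level. The groups overlap for Cd9, through 1 infarct zone library at 63.2 CPM, and Dcstamp has 3 counts in 1 library.

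Together the 10 genes took 0.0381% to 0.0531% of all counts in sham hearts and 0.368% to 0.96% in the IZ. Of the 9 that passed the filter on low counts, 8 had every IZ library above every sham library, as had 16.6% of all genes tested. Trem2, Gpnmb, Atp6v0d2 and Acp5 passed that filter through the IZ libraries alone. Since this contrast had chosen the genes, nothing is read from the count.

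Set against the 5 macrophage markers of the same library, the genes differed in what remained of their difference. Gpnmb had a median of 0.125 counts per macrophage-marker count in sham hearts and 0.749 in the IZ. Tyrobp had 0.464 and 0.815. For both, all 9 infarcts were above all 8 sham hearts. Trem2 had 0.143 and 0.443, with 6 of 9 infarcts above every sham heart, and Acp5 had 0.00935 and 0.0633, with 5 of 9 above. Atp6v0d2 had a median of 0 in sham, and 8 of 9 infarcts, at a median of 0.0301, were above every sham heart. Apoe was nearly level at 7.01 and 7.22, and its ranges, 5.95 to 10 in sham and 5.28 to 9.33 in the IZ, overlapped. Fabp5 had 0.315 and 0.267, also with overlap. Cd63 had medians of 1.41 and 0.75, with overlapping ranges of 0.907 to 1.93 in sham and 0.561 to 1.1 in the IZ. Cd9 had 0.79 and 0.226, and its highest infarct, 0.28, lay below the lowest sham heart, 0.512. These ratios come from the contrast that chose the genes and are descriptions.

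**Figure D2:**
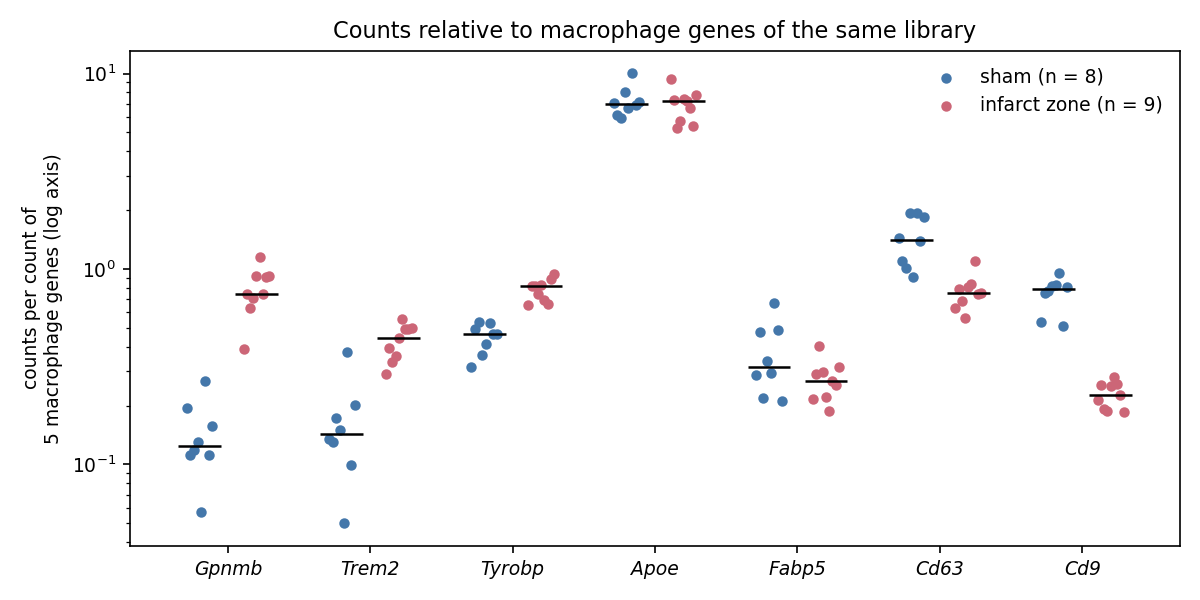
Counts of 7 genes per count of 5 macrophage markers in the same library (log axis), in 8 sham (blue) and 9 infarct zone (red) libraries, with 1 point per library and a black line at each median. Gpnmb and Tyrobp lie higher in all infarct zone libraries, Apoe is nearly level at 7.01 and 7.22, and Cd9 lies lower. Atp6v0d2 and Acp5 have libraries at 0 and are not drawn.

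IZ levels enter the contrast that was known when the genes were chosen, so the order below is not independent of that choice. The genes were ordered without a correction for length, since the tags come from the 3′ end of each transcript. The labels name removal of PCR duplicates as the purpose of the molecular identifiers, but whether the deposited counts were collapsed by them is not given in the sources used here. Neighbours in the order of mean log2 CPM were compared within libraries with an exact two-sided sign-flip permutation test over 8 pairs, whose smallest possible p is 0.00391. Apoe was above Tyrobp by 3.12 ± 0.37 (log2, SD, n = 9; exact test, adjusted p = 0.0104). Tyrobp, Gpnmb and Cd63 followed and were not separated, at differences of 0.03 ± 0.41 and 0.02 ± 0.42 (adjusted p = 0.91 for both, exact test). Cd63 was above Trem2 by 0.84 ± 0.24 in 9 of 9 libraries (exact test, adjusted p = 0.0104), and Trem2 above Fabp5 by 0.66 ± 0.52 in 8 of 9 (exact test, adjusted p = 0.0187). Fabp5 and Cd9 were not separated (0.24 ± 0.51, exact test, adjusted p = 0.224). Cd9 was above Acp5 by 1.77 ± 0.45 (exact test, adjusted p = 0.0104) and Acp5 above Atp6v0d2 by 1.16 ± 0.72 (exact test, adjusted p = 0.0156).

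In sham hearts the order of mean levels was not the same. That change of order restates the unequal log2 differences of the genes, from the contrast that chose them, and is a description. Apoe came first and was followed by Cd63, Cd9 and Tyrobp, each below the one before (exact sign-flip test, adjusted p = 0.0125 for each step). Tyrobp and Fabp5 were not separated (exact test, adjusted p = 0.198), nor were Trem2 and Gpnmb (exact test, adjusted p = 0.375). Trem2 lay below Fabp5 by 1.24 ± 0.86 (log2, SD, n = 8; exact test, adjusted p = 0.0125). Acp5 and Atp6v0d2, both near the floor, closed the order and were not separated (exact test, adjusted p = 0.375).

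Of the 10 genes, 2 have near-identical copies whose 3′ ends could share reads with them. Cd63 has the transcribed pseudogene Cd63-ps, identical at 98.6% over 500 bases of the transcript end, which carried 37.2% of the combined counts in the IZ and 36.6% in sham. Fabp5 has Gm6166 (96.9% over 159 bases) and Gm14328 (98.7% over 158 bases), which carried 26.3% in the IZ and 29.8% in sham. With copies added, Cd63 averaged 142 ± 20.1 CPM over 8 sham hearts and 647 ± 130 CPM over 9 infarcts (SD), a log2 difference of 2.18. Fabp5 then averaged 33.5 ± 8.6 and 207 ± 66 CPM, a log2 difference of 2.63. The order of levels in the IZ was different with the copies. Cd63 stood second and above Tyrobp by 0.62 ± 0.30 (log2, SD, n = 9; exact test, adjusted p = 0.00625). Fabp5 was above Cd9 by 0.72 ± 0.44 (exact test, adjusted p = 0.00625) and no longer separated from Trem2 (0.18 ± 0.44, exact test, adjusted p = 0.295). The levels of Cd63 and Fabp5 are therefore uncertain. How reads that fit a gene and its copy equally well were counted is not given in the sources used here, so these sums do not bound the uncertainty. Genes on the opposite strand overlap Cd9 and Acp5, and had at most 1 count in any library.

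The infarcts differed among themselves, and these differences had no part in the choice of the genes. IZ replicate 1 was the lowest infarct for all 9 detected genes, for instance at 86.5 CPM for Trem2, which averaged 252 ± 47.2 CPM in the other 8 (SD), and it also had the lowest summed macrophage markers, 298 CPM compared with at least 457 CPM in the others. Over all 9 infarcts every one of 36 pairs of genes correlated positively, with a median Pearson r of 0.74. Of these, 12 pairs passed an adjusted p of 0.05 by r and 3 by Spearman's rho (exact permutation). Without IZ replicate 1, 21 of 36 pairs were positive, the median r was 0.17, and no pair passed the adjusted threshold, while 5 had an unadjusted p under 0.05 (exact permutation). The common rise and fall of the 9 genes therefore rested on 1 library.

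The highest r over the 8 infarcts without IZ replicate 1 were among Trem2, Gpnmb and Atp6v0d2, although no pair passed the adjusted threshold there. Trem2 and Gpnmb had an r of 0.98 and a rho of 0.92 over 9 libraries (exact permutation, p = 0.000251 for r and 0.00131 for rho, adjusted p = 0.00451 and 0.0157). The r was 0.88 without the 2 libraries farthest from the Trem2 median. Without IZ replicate 1 it was 0.90 and the rho 0.88 (n = 8, exact permutation, p = 0.0063 and 0.00724, adjusted p = 0.113 and 0.0869). Gpnmb and Atp6v0d2 had an r of 0.97 with all and 0.91 without that library (n = 8, exact permutation, p = 0.00288, adjusted p = 0.104), and Trem2 and Atp6v0d2 0.96 and 0.84 (n = 8, exact permutation, p = 0.0113, adjusted p = 0.135). Leaving out the 2 farthest libraries from these 8 as well gave 0.80 for Trem2 with Gpnmb, 0.78 for Gpnmb with Atp6v0d2 and 0.61 for Trem2 with Atp6v0d2. Cd9 with Atp6v0d2 had an r of 0.71 over the 8 (exact permutation, p = 0.0498, adjusted p = 0.358) and 0.86 without the 2 farthest. In CPM, the infarcts highest for Gpnmb were replicates 6 (636), 8 (590) and 9 (549), and these were also the 3 highest for Trem2 (303, 319 and 297) and for Atp6v0d2 (29.1, 30.7 and 20.4).

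Fabp5 and Acp5 had an r of 0.90 and a rho of 0.85 over 9 infarcts (exact permutation, p = 0.00118 and 0.00607, adjusted p = 0.0107 and 0.0547). Without IZ replicate 1 the r was 0.80 and the rho 0.79 (n = 8, exact permutation, p = 0.0205 and 0.0279, adjusted p = 0.184 and 0.201). Without the 2 libraries farthest from the Fabp5 median the r was 0.72 from the 9 and 0.53 from the 8. In IZ replicate 3 both genes had their highest level, 235 CPM for Fabp5 and 50.4 CPM for Acp5, while Trem2, at 193 CPM, was below its median of 235 CPM. In IZ replicate 6 the reverse was seen, with Fabp5 at 103 CPM, Acp5 at 27.7 CPM and Trem2 at 303 CPM. The r of Gpnmb with Acp5 went from 0.69 over 9 infarcts to -0.61 over 8 (n = 8, exact permutation, p = 0.117, adjusted p = 0.414), and that of Trem2 with Acp5 from 0.68 to -0.52 (n = 8, exact permutation, p = 0.193, adjusted p = 0.414). Neither passed the test in either set of libraries.

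**Figure D3:**
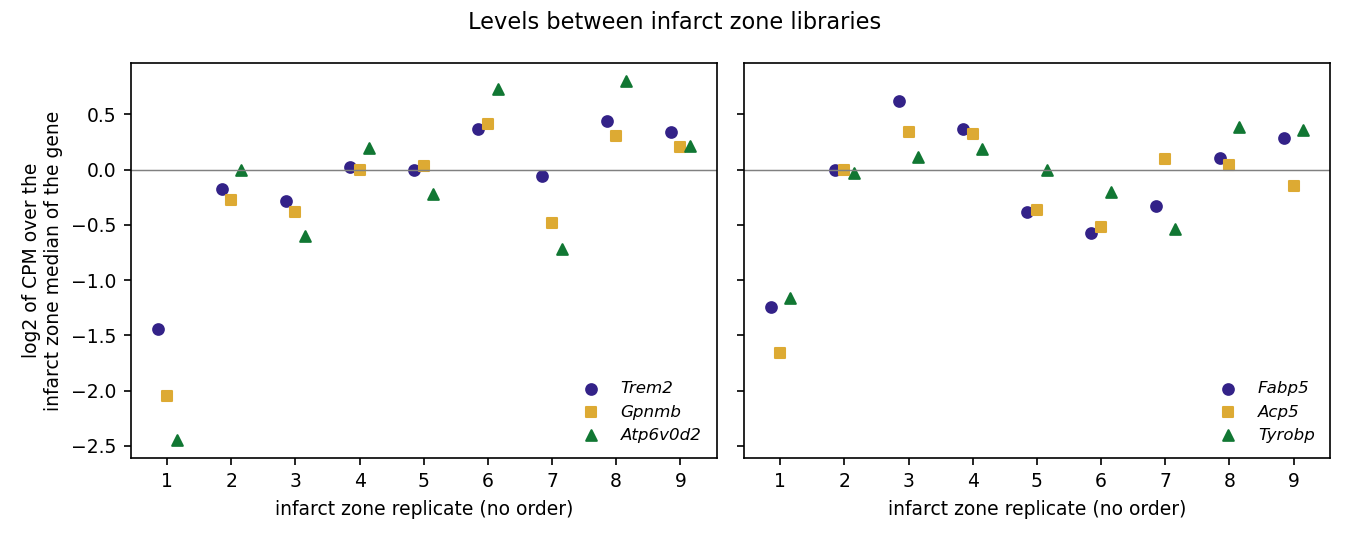
Log2 of the CPM over the gene's infarct zone median in each of 9 infarct zone libraries, with Trem2, Gpnmb and Atp6v0d2 on the left and Fabp5, Acp5 and Tyrobp on the right. Replicate 1 is lowest for all 6 genes, replicates 6, 8 and 9 are highest for the genes on the left, and replicate 3 is highest for Fabp5 and Acp5.

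**Figure D4:**
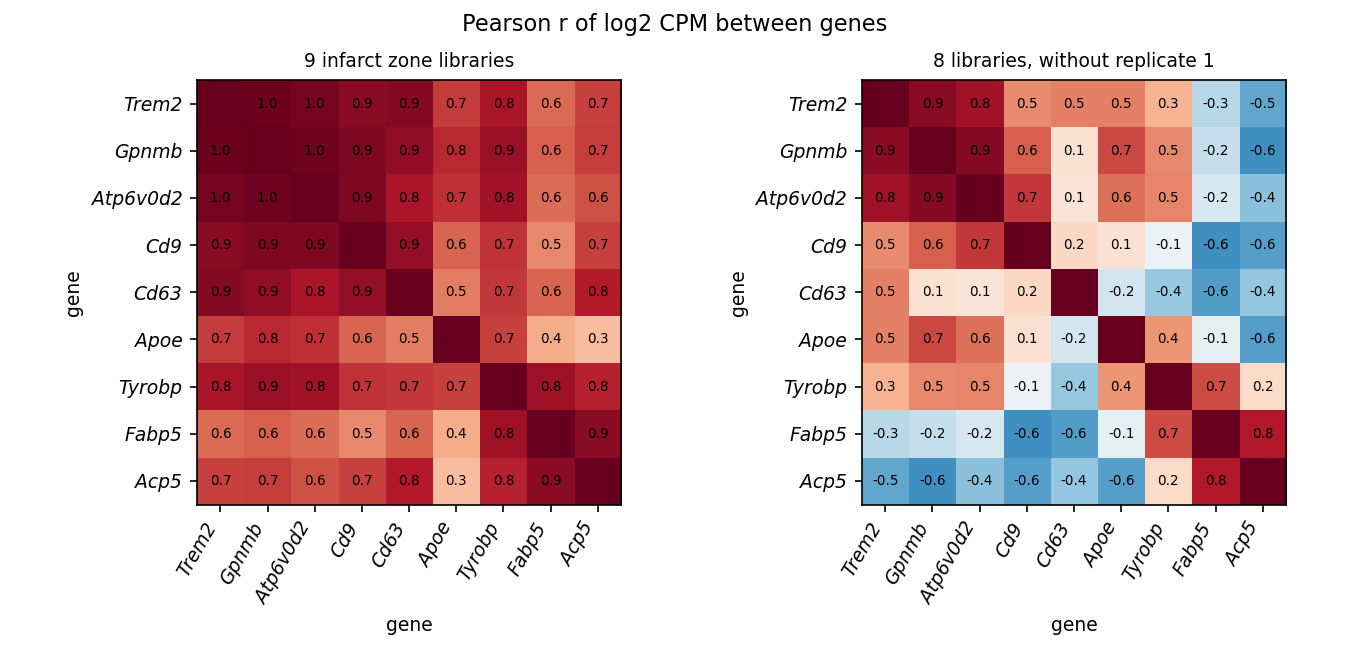
Pearson r of log2 CPM between 9 genes over 9 infarct zone libraries (left) and over the 8 without replicate 1 (right). Red cells are positive, blue cells negative, and the number in each cell is r, which has a median of 0.74 on the left and 0.17 on the right.

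The genes were also set against the mean log2 CPM of marker lists in the same infarcts, 45 relations in all. With the macrophage markers, Tyrobp had the highest r of the 9 genes. It was 0.94 and the rho 0.90 over 9 infarcts (exact permutation, p = 0.000722 and 0.00203, adjusted p = 0.0325 and 0.0913), with r still 0.90 without the 2 libraries farthest from the median. Without IZ replicate 1 the r was 0.80 and the rho 0.86 (n = 8, exact permutation, p = 0.0157 and 0.0107, adjusted p = 0.174 and 0.346). Gpnmb, Fabp5 and Atp6v0d2 had an r of 0.90, 0.83 and 0.89 with these markers, and 0.53, 0.59 and 0.59 without IZ replicate 1. Acp5 had an r of -0.93 with the cardiomyocyte markers (exact permutation over 9 infarcts, p = 0.00475, adjusted p = 0.0451) and -0.64 without that library (n = 8, exact permutation, p = 0.0884, adjusted p = 0.388). Acp5 had an r of 0.77 with the neutrophil markers (exact permutation, p = 0.00771, adjusted p = 0.0451) and 0.61 without that library (n = 8, exact permutation, p = 0.112, adjusted p = 0.388). Of these markers, Cxcr2 and Retnlg averaged 0.977 and 0.876 CPM in the IZ, under the floor of 1.05 CPM. With the endothelial markers Apoe had an r of -0.88, Tyrobp -0.84, Atp6v0d2 -0.77 and Gpnmb -0.75 (exact permutation over 9 infarcts, adjusted p = 0.0365, 0.0365, 0.0464 and 0.0451). These endothelial values were -0.81, -0.76, -0.61 and -0.62 without IZ replicate 1. Without IZ replicate 1, the most negative values were those of Gpnmb with the neutrophil markers, at -0.83, and of Apoe with the neutrophil and endothelial markers and Acp5 with the fibroblast markers, all 3 at -0.81 (n = 8, exact permutation, adjusted p = 0.174 for each). In all, 10 of 45 relations passed the adjusted threshold by r and none by rho, and without IZ replicate 1 none passed by either. With the total count of the library no gene passed an adjusted p of 0.05 in either set (9 relations each). The closest was Cd63 without IZ replicate 1, with an r of -0.76 (n = 8, exact permutation, p = 0.0337, adjusted p = 0.303).

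Outside the 10, the 5 protein-coding genes whose log2 CPM over the 9 infarcts was most like the mean standardised level of the detected genes were taken from 8280 candidates with at least 10 CPM in the IZ. Anxa2, a calcium-dependent membrane-binding protein, had an r of 0.989, and Fcgr3, an antibody receptor of myeloid cells, 0.988. Lgals3, the lectin galectin-3, had 0.987, Fermt3, an integrin activator of blood cells, 0.986, and Tbxas1, thromboxane synthase, 0.982. Without IZ replicate 1 these values were 0.87, 0.87, 0.91, 0.83 and 0.81. They are descriptions over libraries that share their scaling, and carry no test.

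The remaining genes of the same pathways and families were not among the 10 and were tested. Of 134 listed genes, 101 could be tested, of which 71 were called higher and 19 lower, compared with 36.3% and 33.1% of all genes. Their median log2 fold change was 1.17, compared with 0.05 over all genes. Of the 101, 32 passed the filter on low counts through the IZ libraries alone. Of the 66 that would have passed it on either group alone, 41 were called higher and 16 lower, compared with 29.9% and 40.9% of 8263 such genes in the whole table. The lists were also drawn up with results of these data known.

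The signalling partners of TREM2 and DAP12 were mostly higher. Of 13 tested, 12 were called higher and none lower, with a median log2 fold change of 2.69, but 8 had passed the filter through the IZ alone, and of the 4 that would pass on either group all 4 were called higher. Ms4a6d, a membrane protein of the family linked to TREM2 levels, stood at 5.67 ± 3.44 CPM in sham (SD, n = 8). In the IZ it stood at 145 ± 49.4 CPM (SD, n = 9), a log2 difference of 4.73 ± 0.33 (SE). Lat2, an adaptor downstream of DAP12, stood at 2.6 ± 1.32 CPM in sham hearts and at 46.1 ± 15.5 CPM in the IZ. Ms4a6d and Lat2 were both among the 8 that passed through the IZ alone. Adam17, a protease that sheds TREM2 from the surface, rose by 0.94 ± 0.12 (log2, SE, adjusted p = 4.61e-07), and Bcl10, a link to NF-kappaB, by 0.69 ± 0.16 (log2, SE, adjusted p = 0.000533). Of 8 other TREM family and DAP12-coupled receptors, 2 were abundant enough to be tested, both through the IZ libraries alone, so their direction was fixed by the filter. With the replicate block neither passed it. Clec5a, a lectin receptor of myeloid cells, stood at 2.16 ± 1.26 CPM in sham and 10.3 ± 3.2 CPM in the IZ. Sirpb1a had 0 or 1 count in every sham library and 7 to 62 in an IZ library. Its IZ mean was 3.89 times the sham floor, a lower bound for the ratio of the group means only. Trem1, which amplifies inflammation in neutrophils and monocytes, had at most 1 count in sham and at most 30 in the IZ and was not tested.

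Other genes of the lipid-associated state were mostly called higher, and 2 were called lower. Of 19 tested, 16 were called higher and 2 lower (median log2 fold change 2.53), and of the 15 that would pass the filter on either group, 12 were higher and 2 lower. Spp1, the secreted matrix protein osteopontin, passed the filter through the IZ libraries alone. It stood at 23.3 ± 11.5 CPM in sham and 1010 ± 389 CPM in the IZ, a log2 difference of 5.45 ± 0.45 (SE). Lgals3 rose by 5.42 ± 0.32 (log2, SE, adjusted p = 2.12e-12). Cd36, a fatty acid transporter that cardiomyocytes and capillaries also express, fell from 1176 ± 85.6 to 236 ± 83.1 CPM (adjusted p = 8.11e-11). Lpl, the lipoprotein lipase that heart muscle also makes, fell from 5068 ± 421 to 564 ± 498 CPM (adjusted p = 9.49e-09). The 5 cardiomyocyte markers fell in the same libraries, from between 23141 and 29721 CPM in sham to between 1060 and 11230 CPM in the IZ. Their part in the lower level of both genes was not tested.

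Of 14 tested genes of cholesterol and lipoprotein handling, 10 were called higher and none lower, with a median log2 fold change of 1.21, and of the 9 that would pass the filter on either group, 6 were higher. Msr1, a scavenger receptor for modified lipoprotein, stood at 4.15 ± 2.14 CPM in sham and 44.9 ± 20.2 CPM in the IZ. Abcg1, an exporter of cholesterol, stood at 3.74 ± 1.17 and 28.6 ± 7.83 CPM. Both passed the filter through the IZ libraries alone. The nuclear receptors of this list were not called. Nr1h3, which encodes LXRalpha, had a log2 fold change of -0.18 ± 0.20 (SE, adjusted p = 0.45) and Pparg one of -0.42 ± 0.28 (SE, adjusted p = 0.19). With total-count scaling both turned positive, at 0.90 and 0.64, and were called higher (adjusted p = 0.000825 and 0.0444). Pparg, too, had passed the filter through the IZ alone.

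Of 10 tested osteoclast and fusion genes, 9 were called higher and 1 lower (median log2 fold change 2.25). Of these 10, 5 passed the filter through the IZ alone, and the 4 that would pass on either group were higher. Tcirg1, a proton pump subunit of osteoclasts and lysosomes, rose from 10.6 ± 1.56 to 101 ± 24.1 CPM (adjusted p = 4.22e-13). Tnfrsf11b, the decoy receptor osteoprotegerin, had 0 to 6 counts in a sham library and 7 to 114 in an IZ library, which is 0.633 ± 1.14 and 7.33 ± 3.86 CPM, and passed the filter through the IZ alone. Nfatc1, the master transcription factor of osteoclasts, rose by 0.60 ± 0.20 (log2, SE, adjusted p = 0.0115), and 4 of 9 infarcts lay above every sham heart. Car2, the carbonic anhydrase that acidifies the resorption pit, fell by 0.94 ± 0.26 (log2, SE, adjusted p = 0.00247), but stood at 0.12 (adjusted p = 0.667) with total-count scaling.

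The MiT/TFE transcription factors, which drive lysosomal genes, did not move together. Of 4 tested, Tfe3 and Tfec passed the filter through the IZ alone, and the 2 that would pass on either group were both called lower. Tfe3 stood at 8.92 ± 3.37 CPM in sham and 25 ± 5.34 CPM in the IZ, a log2 difference of 1.46 ± 0.20 (SE). Tfec had 0 to 5 counts in a sham library and 4 to 56 in an IZ library, or 0.73 ± 1.01 and 6.92 ± 3.32 CPM. Mitf fell from 51.3 ± 8.98 to 16.1 ± 4.4 CPM (adjusted p = 1.45e-09). The cardiomyocyte markers fell in the same libraries, and their part in the lower level of Mitf was not tested. Tfeb fell by 0.69 ± 0.18 (log2, SE, adjusted p = 0.00179), a direction that turned to 0.36 (adjusted p = 0.0653) with total-count scaling.

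Relatives of the same families were counted as well. Of 17 tested V-ATPase subunits other than Atp6v0d2, 10 were called higher and 5 lower, with a median log2 fold change of 0.40, although 16 were higher and 1 lower with total-count scaling. Atp6v1a, a catalytic subunit, rose by 2.01 ± 0.17 and Atp6ap2 by 1.59 ± 0.15 (log2, SE, adjusted p = 5.35e-10 and 2.26e-09). Atp6v0e2 fell by 2.05 ± 0.26 (log2, SE, adjusted p = 2.59e-07), and Atp6v1d by 0.70 ± 0.16 (adjusted p = 0.000419), the latter turning to 0.35 (adjusted p = 0.0226) with total-count scaling. Atp6v0d1, the widely expressed relative of Atp6v0d2, was at 49.6 ± 7.99 CPM in sham hearts (SD, n = 8). The number of Atp6v0d2 counts per Atp6v0d1 count had a median of 0 in sham and 0.192 in the IZ.

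Among 17 tested tetraspanins other than Cd63 and Cd9, 9 were called higher and 6 lower (median log2 fold change 0.68), compared with 13 and 2 with total-count scaling. Of the 11 that would pass the filter on either group, 4 were higher and 5 lower. Cd53, a tetraspanin of leucocytes, had a log2 difference of 3.50 ± 0.23 (SE). Cd37, another of leucocytes, stood at 2.32 ± 1.25 CPM in sham and 17 ± 4.01 CPM in the IZ. Both passed the filter through the IZ libraries alone. Tspan7 and Tspan13 fell by 1.76 ± 0.16 and 1.55 ± 0.18 (log2, SE, adjusted p = 1.03e-09 and 5.32e-08).

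The 2 tested relatives of Fabp5 were both lower in the IZ. Fabp3, the heart muscle form, fell from 4388 ± 514 to 345 ± 522 CPM (SD, n = 8 and 9, adjusted p = 8.13e-07), a log2 fold change of -3.67 that stood at -4.72 without IZ replicate 1. Its median level in the infarcts was 163 CPM. Fabp4, the form of adipocytes and capillaries, fell from 1400 ± 361 to 424 ± 131 CPM (adjusted p = 3.90e-08). The number of Fabp5 counts per Fabp3 count went from a median of 0.00497 in sham to 0.821 in the IZ, and per Fabp4 count from 0.0169 to 0.392. Both ratios also hold the fall of the muscle and capillary genes, whose part was not separated. Of the acid phosphatases, lysosomal Acp2 rose by 1.15 ± 0.14 (log2, SE, adjusted p = 9.21e-08), Acp6 fell by 1.47 ± 0.16 (adjusted p = 2.78e-08), and Acp1 was not called, at -0.06 ± 0.18 (adjusted p = 0.801), although it was called higher, at 1.02, with total-count scaling (adjusted p = 4.51e-05).

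**Figure D5:**
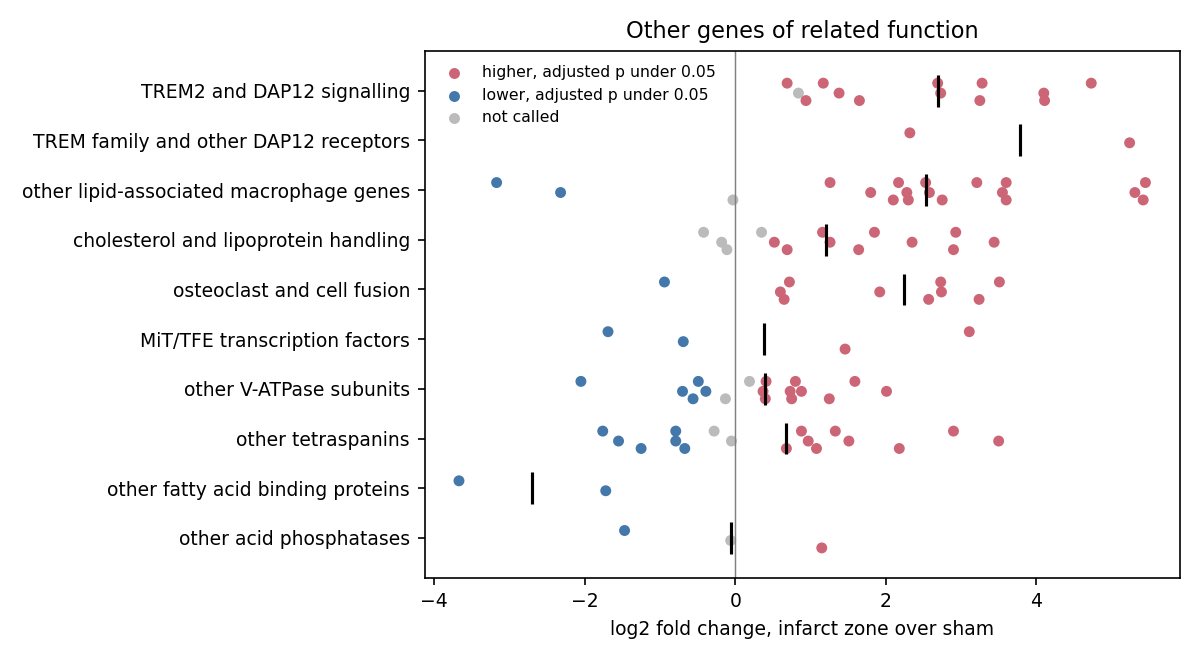
Log2 fold change, infarct zone (n = 9) over sham (n = 8), of the 101 tested genes of 10 related lists, with 1 point per gene, coloured red (called higher), blue (called lower) or grey (not called) by edgeR's adjusted p of 0.05, and a black line at each list's median. The medians lie between -2.70 for the other fatty acid binding proteins and 3.78 for the TREM family and other DAP12 receptors, which has 2 tested genes, both past the filter through the infarct zone alone, and a median of 2.14 with Sirpb1a at its lower bound.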

How the data were processed

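Heart RNA of 17 mice was analysed by MACE, 3′ end sequencing with molecular identifiers. According to the labels and the study's methods, the authors trimmed reads with Cutadapt 4.6, aligned them to mm10 and counted them with HTSeq (processing notes also name bcl2fastq, Bowtie2 and DESeq2). The deposited values are raw counts per gene. Groups and replicate numbers came from the sample titles. Totals ranged from 1237675 to 4738307 counts, and limits from counts cover counting error only. Within-group library pairs differed beyond sampling noise (chi-square per degree of freedom 2.41 to 83.8).

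The 10 genes and all gene lists were chosen with earlier results of these data known. Counts were filtered (filterByExpr, minimum 10 counts in a library of median size, in at least 8 libraries), scaled with TMM and tested with the two-sided quasi-likelihood F-test of edgeR 4.0.16 in R 4.3.3, with Benjamini-Hochberg adjustment over 12301 genes, after a check on simulated data. CPM are scaled with TMM. SE are from that fit. Log2 CPM for correlations and order used a prior count of 1. Dcstamp, at 0 in most infarcts, was left out of pairs and order. Genes of each list were named by a rule: all of a list with at most 6 tested, otherwise the 2 highest and 2 lowest with at least 5 CPM in a group. Other genes named were chosen after their values were seen. The counts of genes that would pass the filter on either group alone were added after the data were seen, as were those with copies. Near-identical copies were found with BLAST 2.17.0 over the last 500 bases of transcripts (at least 95% over 100 bases). Alternatives were total-count and DESeq2 scaling, no filter, DESeq2 1.42.0, removal of mitochondrial genes, a replicate block, a prior count of 5 and leaving out each library. Start windows were matched for 6 of 10 genes; Apoc2, Siglec15, Fabp2, Fabp6, Acp3 and Acp4 were not analysed here.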

Additional observations from a re-analysis of the deposited data

Results flagged for a closer look

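In 2 of 18 groups tested, 1 library lay far from the others of its group, where chance marks about 1 group in 20. Both are IZ replicate 1. Cd63 stood there at 188 CPM and at 377 to 502 CPM in the other 8 infarcts. Cd9 stood there at 63.2 CPM and at 110 to 154 CPM in the others. The same library held 19.5% mitochondrial counts and the highest cardiomyocyte markers of the infarcts, 11230 CPM, and the part of either in these values was not tested.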

How the results depend on the processing

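With total-count scaling 9176 genes were called higher and 1534 lower, and 9 listed genes lower compared with 19. It gave log2 differences of 5.65 for Trem2, 4.96 for Tyrobp, 6.73 for Gpnmb, 3.26 for Cd63, 2.42 for Cd9, 3.79 for Fabp5, 4.04 for Apoe and 6.13 for Acp5. The 6.28 for Atp6v0d2 is a fitted value that depends on the prior count and is no bound. The number of correlated pairs past the threshold went from 12 to 7, and of relations to marker lists from 10 to 2. With a prior count of 5 the latter were 3, and without IZ replicate 1 both were 0. Among genes that would pass the filter on either group alone, 41 listed genes were higher compared with 71, since fewer genes were counted. Leaving out each library in turn gave 4153 to 4522 genes higher, 3807 to 4238 lower, and 65 to 74 listed genes higher. All 9 detected genes kept a positive difference under each setting that could be fitted. Atp6v0d2, Sirpb1a, Clec5a, Tfec and Tnfrsf11b were filtered out of 8 of 17 such fits and of the fit with the replicate block.

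The labels do not say what a replicate number shares between sham and IZ. Of 8 same-number correlations, 1 was over 0.1 (range -0.216 to 0.128), and 1 of 8 samples correlated best with its own number. So few correlations cannot decide whether a number marks a shared day or batch. With the replicate block 4086 genes were called higher and 3798 lower. Animals behind a number are not named, IZ and sham differ in dissection as well as in infarction, and low genes such as Dcstamp and Ocstamp are limited by depth.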
